A study of Mus musculus with 29 samples.

Results

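Iron, haem and antioxidant genes were followed through every cell type of a mouse stroke study as 10 named genes: Hmox1, Slc7a11, Gclm, Srxn1, Txnrd1, Prdx1, Fth1, Ftl1, Slc40a1 and Tfrc. They are 10 of the 27827 genes held by any of the deposited tables, and each of the 10 is in the table of every library. They were chosen by name, and their level is the CPM, the share of all counts scaled to 1000000, of the counts summed over the cells of 1 annotated type in 1 library. Expression was measured by Drop-seq, a droplet method that tags each transcript with the barcode of its cell, in 106977 cells of 29 libraries from C57BL/6J mice.

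For stroke the middle cerebral artery was blocked for a time and reopened, and controls were operated on without this. The young groups were males aged 8 to 10 weeks: sham at day 2, stroke at day 2 and stroke at day 14, with 4 brain libraries in each and with 4, 4 and 3 blood libraries. Aged mice of 17 to 20 months gave 2 sham and 3 stroke brain libraries at day 2, from males and females, and 1 stroke library at day 14 from females. There was no sham group at day 14, so both stroke times were set against the same day 2 sham libraries. Each brain library pooled 4 to 5 hemispheres and held sorted microglia, cells with high CD45 and endothelial cells; each blood library pooled the leukocytes of 2 mice. All cells were isolated in the presence of actinomycin D, which blocks transcription, and Brilliant Blue G. Brain cells were freed with papain and blood cells by lysis of red cells, so tissue and isolation cannot be told apart. Replicates are pools, and p-values measure the spread between pools.

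Brain libraries held 1143 to 5121 cells and 819438 to 5855047 counts, blood libraries 2360 to 6328 cells and 966914 to 5232662 counts. The authors' cell types were kept and checked against marker lists. In the types used below the type's own list was the highest, except that border-associated macrophages of brain and dendritic cells of blood had the monocyte or macrophage list highest and their own list second. In 2 libraries the markers of a type went against its label. In the young day 2 stroke library 3, the cells annotated as microglia were 58, with 26321 counts, and 3 of 8 microglial markers were at 0. Their microglial markers summed to 820 CPM, against 13800 to 15074 CPM in the other 3 libraries of the group, and their monocyte or macrophage markers to 5535 CPM, the highest of the 4. In the young sham library 4, the 52 cells annotated as border-associated macrophages had that type's markers at 2189 CPM, with 1 of 7 at 0, against 12021 to 13730 CPM in the other 3 sham libraries. Their dendritic cell markers summed to 13199 CPM, against 4481 to 6009 CPM. Most fitted results that rest on either library are given with and without it. Some levels, the subtype values and the pattern search at the end are given only with both libraries. The young brain libraries also split by mitochondrial share, 5 at 0.23% to 0.56% of counts and 7 at 1.67% to 3.38%, and with this split as a term in the fits no member call changed direction. The 406 pairs of libraries shared 0 to 7 cell barcodes. A gene that would have failed the filter on low counts without the libraries of the group where it was higher had to differ to be tested, so in the 2-group comparisons below it is left out of the counts, which are of the remaining genes, and members left out are named. The share of all genes called, given beside each count, is of every gene tested and leaves none out. Counts and shares are therefore not on the same basis.

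Iron enters most cells by endocytosis of transferrin bound to the transferrin receptor (Tfrc), is stored in ferritin, a shell of heavy (Fth1) and light (Ftl1) chains, and leaves through ferroportin (Slc40a1). Haem from dying cells and red cells is opened by haem oxygenase 1 (Hmox1), which releases iron, carbon monoxide and biliverdin. The transcription factor NRF2 drives many antioxidant genes: the cystine importer Slc7a11, the regulatory subunit of glutamate-cysteine ligase (Gclm), sulfiredoxin (Srxn1), thioredoxin reductase 1 (Txnrd1) and peroxiredoxin 1 (Prdx1). Brain endothelium is known for high transferrin receptor, which carries iron across the blood-brain barrier, and macrophages for haem and iron recycling.

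Letters that each kind of control is known to use were searched for in the sequences. Iron regulatory proteins bind a hairpin in the untranslated regions (UTRs) of transcripts, the iron-responsive element: in the 5′ UTR it can block translation, and in the 3′ UTR it can protect the transcript from decay. The letters CNNNNNCAGTG, with 5 paired stem bases on either side of the loop (G-T pairs allowed), were searched on the transcript strand of the annotated UTRs of GENCODE M21 (GRCm38). They were in 155 of 21899 coding genes (0.708%), and 4 of the 10 genes were among them. The sites are shown because both ferritin chains, the exporter and the importer carry them; capitals mark the loop letters CAGTG.
Fth1, 5′ UTR, chr19:9982732-9982761, + strand: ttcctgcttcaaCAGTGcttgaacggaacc
Ftl1, 5′ UTR, chr7:45459778-45459807, - strand: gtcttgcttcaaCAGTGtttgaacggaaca
Slc40a1, 5′ UTR, chr1:45925464-45925493, - strand: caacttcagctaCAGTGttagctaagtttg
Tfrc, 3′ UTR, chr16:32631219-32631248, + strand: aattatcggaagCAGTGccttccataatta
Tfrc, 3′ UTR, chr16:32631598-32631627, + strand: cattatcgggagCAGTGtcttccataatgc
Tfrc, 3′ UTR, chr16:32631663-32631692, + strand: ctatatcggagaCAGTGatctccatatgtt
Tfrc, 3′ UTR, chr16:32631710-32631739, + strand: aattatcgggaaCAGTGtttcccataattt

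Fth1, Ftl1 and Slc40a1 each held 1 such site in the 5′ UTR, and Tfrc held 4 in the 3′ UTR. The counts here measure transcripts and hold no translation, so the 5′ sites can be read beside the values but not tested by them.

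NRF2 binds the antioxidant response element, and its core letters TGACNNNGC were searched on both strands over the 250 bases before the start in the RefSeq promoters (GRCm38.p6). They were in 3338 of 32851 promoters (10.2%) and in 3 of the 12 promoters that the table holds for 8 of the 10 genes. The 3 are shown over 120 bases, with the core in capitals as it reads on the opposite strand.
Gclm, chr3:122245367-122245486, + strand: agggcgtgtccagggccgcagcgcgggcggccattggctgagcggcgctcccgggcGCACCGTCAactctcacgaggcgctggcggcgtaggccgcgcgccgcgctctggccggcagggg
Txnrd1, chr10:82859058-82859177, + strand: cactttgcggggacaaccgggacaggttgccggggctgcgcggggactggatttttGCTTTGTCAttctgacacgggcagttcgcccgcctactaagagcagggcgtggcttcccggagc
Prdx1, chr4:116685410-116685529, + strand: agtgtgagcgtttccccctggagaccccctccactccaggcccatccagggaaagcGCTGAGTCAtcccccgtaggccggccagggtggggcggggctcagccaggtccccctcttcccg

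The core lay 134 bases before the start in Gclm, 92 in the Txnrd1 promoter shown and 133 in Prdx1. A match is a description of the letters and not a bound site, and no match in this window says nothing of NRF2 at the other genes.

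In young sham brain the 10 genes did not all have the same cell type at the top. Tfrc was highest in endothelial cells, at 624 ± 299 CPM (SD, n = 4), and no endothelial library overlapped those of the next type, B cells, at 69.5 ± 56.9 CPM. In microglia it stood at 13 ± 4.82 CPM, and no count of it was seen in brain granulocytes of sham mice. Slc40a1 was led by endothelial cells at 299 ± 89.5 CPM, followed by granulocytes at 183 ± 53.1, microglia at 135 ± 11.6 and border-associated macrophages at 126 ± 67.5 CPM, and each of these overlapped its neighbour in the order; without sham library 4 the macrophages were at 157 ± 34.7 CPM (n = 3). In monocyte-derived cells Slc40a1 was at 1.30 ± 2.61 CPM.

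Hmox1 was highest in border-associated macrophages, 136 ± 126 CPM with libraries from 36.7 to 321 (151 ± 150 CPM without sham library 4), ahead of monocyte-derived cells at 59.2 ± 18.8 and microglia at 30.2 ± 12.5 CPM, and in endothelial cells it was at 4.92 ± 5.82 CPM. Fth1 was highest in granulocytes, 10092 ± 2681 CPM, and border-associated macrophages, 9681 ± 1257 CPM (9185 ± 945 CPM without sham library 4), which overlapped; in microglia it was at 4038 ± 732 and in T cells, the lowest, at 2436 ± 451 CPM. Slc7a11 was highest in granulocytes, at 52.8 ± 30.8 CPM with libraries between 16.1 and 81.0, and was 0 in endothelial cells, B cells and T cells. Prdx1 was led by mural cells, 847 ± 121 CPM in 2 libraries, and monocyte-derived cells, 598 ± 174 CPM in 4, and was lowest in granulocytes at 19.6 ± 21.3 CPM. Gclm was highest in endothelial cells, 178 ± 35.9 CPM, and granulocytes, 166 ± 64.0 CPM, which overlapped. Srxn1 was near the detection limit everywhere in sham brain, with type means up to 5.37 CPM.

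Within the same sham libraries, 4 of 6 genes differed between endothelial cells and microglia, with 49.9% of all genes called in that comparison (edgeR's quasi-likelihood test, Benjamini-Hochberg adjustment, library as a block). Gclm was higher in endothelium by 2.04 ± 0.23 (log2 fold change ± SE), as were Prdx1 by 1.41 ± 0.18 and Slc40a1 by 1.09 ± 0.19, and the ferritin light chain Ftl1 was lower (-1.52 ± 0.18). Tfrc, at 5.36 ± 0.26, passed the filter only through endothelium and Hmox1, at -2.57 ± 0.58, only through microglia. Of the other iron genes on the list 3 of 6 differed, 2 higher and 1 lower. Outside this count, the ferroxidase ceruloplasmin (Cp) was at 505 CPM in endothelium and 1.35 in microglia, while transferrin (Trf) was at 10.5 against 544 CPM and the phagosomal iron exporter Slc11a1 at 0.430 against 436 CPM.

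Border-associated macrophages against microglia of the same libraries had 3 of 6 genes higher and none lower, beside 22.6% of all genes called. They were Prdx1 (1.52 ± 0.21), Fth1 (1.39 ± 0.25) and Ftl1 (1.30 ± 0.24). Hmox1, at 2.29 ± 0.32 with overlapping libraries, passed the filter only through the macrophages, as did Tfrc, at 32.2 ± 8.32 against 13 ± 4.82 CPM. Of the lists, 2 of 6 haem genes and 9 of 21 NRF2 genes in the count were higher and none lower. Before genes were left out, 2 haem genes, Abcg2 (-2.67) and Lrp1 (-1.62), were called lower. So were 2 NRF2 genes, Keap1 (-1.19) and Gclc (-2.13), and all of these passed the filter only through microglia. Before genes were left out, 4 of 11 iron genes were called, 3 higher and 1 lower. Of these, Cp (8.50) passed the filter only through the macrophages and Slc25a37 (-1.41) only through microglia. Outside these counts, Lrp1, a receptor for haem-haemopexin, was at 76.8 against 323 CPM, and Gstm1, a glutathione transferase, at 71.3 against 9.71 CPM. Without sham library 4 there were also 3 of 6, Prdx1 at 1.57 ± 0.17, Fth1 at 1.36 ± 0.13 and Ftl1 at 1.38 ± 0.13, beside 23.4% of all genes, with Hmox1 at 2.28 ± 0.33, and the lists had 3 of 7 haem and 11 of 25 NRF2 genes called. Slc40a1, at 126 ± 67.5 and 135 ± 11.6 CPM, was not called.

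At day 2 of stroke, microglia held more Hmox1, ferritin, Prdx1 and Txnrd1 transcript and less ferroportin. Of the 8 genes tested 6 were called, 5 higher and 1 lower, while 31.4% of all 10145 genes were called in this comparison. Without library 3 the count was also 6 of 8, 5 higher and 1 lower, beside 27.5% of all genes. The median log2 fold change was 1.14 over the 8 genes and -0.05 over all genes tested. Whether the annotated microglia of the 2 groups are the same cells was not tested: their microglial markers summed to 19237 to 27778 CPM in sham and 820 to 15074 CPM after stroke, and their monocyte or macrophage markers to 233 to 401 CPM and 551 to 5535 CPM. Neither range overlapped, and without library 3 the stroke ranges began at 13800 and ended at 1445 CPM. The neutrophil markers in these cells summed to 176 to 599 CPM in sham and 16.7 to 156 CPM at day 2, also without overlap.

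Hmox1 in sham microglia was 41.9, 39.7, 16.8 and 22.5 CPM, and at day 2 of stroke 69.9, 100, 417 and 113 CPM. All 4 stroke libraries lay above all 4 sham libraries, and library 3 was far above the rest. Hmox1 rose by 2.15 ± 0.45 on the log2 scale (adjusted p = 0.00374), and by 1.82 ± 0.38 (adjusted p = 0.00525) without library 3.

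Both ferritin chains rose. The tables also hold processed copies of both (Fth-ps2, Fth-ps3, Ftl1-ps1, Ftl1-ps2 and Ftl2-ps), and how reads were shared between them is not given in the sources used here. Fth1 was 3365, 4459, 4851 and 3477 CPM in sham and 6517, 8902, 25913 and 8653 CPM at day 2, with no overlap, a change of 1.62 ± 0.38 (adjusted p = 0.00706). Ftl1 was 2673, 3792, 3495 and 2384 CPM in sham and 5757, 6110, 13538 and 6543 CPM at day 2, a change of 1.40 ± 0.31 (adjusted p = 0.00521). Without library 3 the changes were 1.17 ± 0.25 (adjusted p = 0.00585) and 1.17 ± 0.24 (adjusted p = 0.00461). Rounding the deposited fractional counts up instead of to the nearest whole number ended both calls, at adjusted p = 0.18 for Fth1 and 0.181 for Ftl1.

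Slc40a1, the exporter, moved the other way. It was 130, 128, 131 and 153 CPM in sham and 36.1, 41.1, 0 and 34.0 CPM at day 2, so that every stroke library was under every sham library, and it fell by 1.76 on the log2 scale (SE 0.33, adjusted p = 0.00206). Without library 3, where no count was found, it fell by 1.69 (SE 0.31, adjusted p = 0.00251). Tfrc, the importer, was 19.3 ± 14.0 CPM against 13 ± 4.82 in sham, with overlap (24.2 ± 12.3 CPM without library 3), and was not called.

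**Figure D1:**
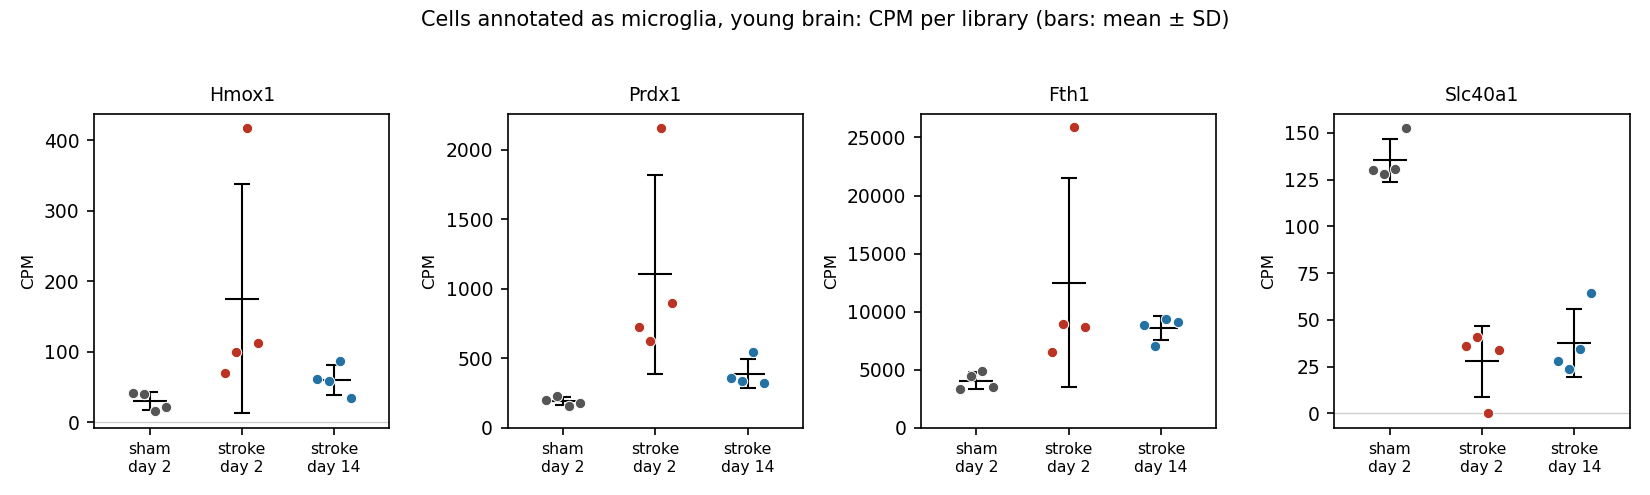
CPM of Hmox1, Prdx1, Fth1 and Slc40a1 (y axes, linear) in cells annotated as microglia of young brain, by group (x axis); points are libraries and bars the mean ± SD of 4. The day 2 stroke library with 58 such cells is the top point for Hmox1, Prdx1 and Fth1 and the point at 0 for Slc40a1; the other day 2 libraries still lie outside the sham range in all 4 panels.

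Among the thiol antioxidants, Prdx1, which reduces hydrogen peroxide, went from 200, 227, 160 and 180 CPM in sham to 728, 627, 2160 and 899 CPM at day 2. This was a rise of 2.48 ± 0.33 (adjusted p = 0.000192), and of 2.16 ± 0.27 (adjusted p = 0.000299) without library 3. Txnrd1 rose by 0.81 ± 0.23 (adjusted p = 0.0166; 0.79 ± 0.23, adjusted p = 0.0273, without library 3), a call that was lost with DESeq2 (adjusted p = 0.0711) and without stroke library 4 (adjusted p = 0.0583). Srxn1 had 3 counts over the sham libraries and 44 over the stroke libraries, a ratio of 18.6 with a 95% counting interval of 5.97 to 93.8, and was too low for the test. Without library 3 the ratio was 18.7 (6.01 to 94.4), and Srxn1 passed the filter only through the stroke libraries. Gclm was 56.2 ± 26.2 against 44.7 ± 9.98 CPM (43.5 ± 7.59 CPM without library 3) and was not called, and Slc7a11 stayed under 10 CPM in every young microglial library.

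Other genes of the 3 pathways in microglia at day 2 were counted beside the same 31.4% of all genes called. Of 32 NRF2, glutathione and thioredoxin genes, 12 were higher and 2 lower; thioredoxin (Txn1) rose from 71.8 to 448 CPM (2.59 ± 0.29, adjusted p = 5.29e-05), and its inhibitor Txnip fell from 429 to 107 CPM (-1.54 ± 0.34, adjusted p = 0.00549). Of 15 haem genes, 3 were higher and 2 lower, near that share, and the lower ones included Bach1, the haem-sensing repressor of Hmox1, at 82.6 against 229 CPM (-1.37 ± 0.39, adjusted p = 0.0179). Of 14 iron genes, 1 was higher and 3 lower, also near it; Alad, an enzyme of haem synthesis left out of the haem count, was at 24.7 against 8.62 CPM. The iron gene that rose, Slc39a14, a zinc and iron importer, was at 36.5 against 8.51 CPM (2.42 ± 0.42, adjusted p = 0.00119). Without library 3 the calls were 11 higher and 1 lower of 32 NRF2 genes, 4 and 2 of 16 haem genes and 2 and 3 of 14 iron genes, beside 27.5% of all genes. Txn1 (2.41 ± 0.27), Txnip (-1.43 ± 0.33), Bach1 (-1.39 ± 0.43, adjusted p = 0.0317) and Slc39a14 (2.51 ± 0.37) were called there too.

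At day 14 the microglia still differed from sham in 4 of the 8 genes, 3 higher and 1 lower, where 15.2% of all genes were called. Prdx1 was 357, 337, 544 and 324 CPM (1.48 ± 0.31, adjusted p = 0.0068), Fth1 8808, 7059, 9343 and 9079 CPM (1.54 ± 0.38, adjusted p = 0.0169) and Slc40a1 28.2, 23.8, 34.6 and 64.2 CPM (-1.38 ± 0.30, adjusted p = 0.00854), each outside its sham range. Hmox1, at 61.5, 58.5, 86.6 and 35.3 CPM, overlapped the sham libraries (1.45 ± 0.42, adjusted p = 0.0336). Its call was lost without any one of sham libraries 2, 3 and 4 or stroke libraries 1 and 3, with adjusted p from 0.0546 to 0.123, and that of Fth1 without sham library 4 (adjusted p = 0.0719), with counts rounded up (adjusted p = 0.0733) and with no filter (adjusted p = 0.0504). Without day 2 stroke library 3, which shares the fit, the 4 were called, Hmox1 at 1.44 (adjusted p = 0.0208), Prdx1 at 1.47, Fth1 at 1.52 and Slc40a1 at -1.39. Scaling by library size alone shifted the median of all genes by -0.45 and ended the calls of Hmox1 (0.99, adjusted p = 0.0934) and Fth1 (1.09, adjusted p = 0.0552).

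Ftl1 at day 14 was 4104 ± 264 CPM and missed the threshold (0.86 ± 0.31, adjusted p = 0.0711); it was called without day 2 stroke library 3 (0.84, adjusted p = 0.0269), with DESeq2 (adjusted p = 0.0277), with only both compared groups in the fit (adjusted p = 0.0295) and with the mitochondrial split as a term (adjusted p = 0.0417). At day 14 the markers of these cells also differed from sham, with no overlap: microglial markers summed to 12672 to 16634 CPM against 19237 to 27778 CPM, monocyte or macrophage markers to 2209 to 3242 against 233 to 401 CPM, and border-associated macrophage markers to 43.6 to 96.3 against 32.8 to 39.6 CPM. Their part in the member changes was not tested. Of the pathway lists, 6 of 32 NRF2 genes, 1 of 16 haem genes and 1 of 13 iron genes were called (7, 1 and 1 without day 2 stroke library 3), beside the 15.2% of all genes; outside these counts Cp was at 14.3 against 1.35 CPM and Ncoa4, a ferritin receptor of autophagy, at 2.85 against 11.9 CPM. The 6 NRF2 calls, 5 higher and 1 lower, were near that share. The peroxiredoxins Prdx4 (1.74 ± 0.23) and Prdx6 (1.37 ± 0.32) were among those that rose. In the fit without day 2 stroke library 3, Txnip (-1.46 ± 0.30) and the iron gene Slc25a37 (-1.04 ± 0.28) were lower. The member Gclm, at 22.7 ± 3.41 against 44.7 ± 9.98 CPM in sham without overlap, was not called (-0.52 ± 0.23, adjusted p = 0.141).

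Between day 14 and day 2 of stroke none of the 8 genes was called in microglia, beside 6.93% of all genes, and DESeq2 called 1. That gene was Prdx1, at 390 ± 103 against 1103 ± 713 CPM with no overlap (-1.0 ± 0.32, adjusted p = 0.0729; 0.0335 with DESeq2). Without library 3 the day 2 level was 751 ± 137 CPM and the change -0.69 (adjusted p = 0.152). It was called without day 14 library 3 (-1.23, adjusted p = 0.043), with library size alone (-1.43, adjusted p = 0.0199) and with the mitochondrial split as a term (adjusted p = 0.0437), and with counts rounded up it was at -0.50 (adjusted p = 0.361). Gclm (22.7 ± 3.41 against 56.2 ± 26.2 CPM), Txnrd1 (57.2 ± 6.73 against 116 ± 26.7 CPM) and Ftl1 (4104 ± 264 against 7987 ± 3715 CPM) were also lower at day 14 without overlap. Their adjusted p were 0.121, 0.133 and 0.336, and 0.146, 0.169 and 0.499 without library 3. CPM are scaled by library size alone, which shifted the median of all genes by -0.29 here. The share of all genes without overlap is not given, so the lack of overlap cannot be set against it. Over all genes 2228 had an unadjusted p under 0.05.

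Brain endothelial cells at day 2 held less transcript of both iron transporters, Tfrc and Slc40a1, and more of Gclm, Txnrd1, Prdx1 and Ftl1. Of 7 genes tested 6 were called, 4 higher and 2 lower, beside 13.3% of 5833 genes; the median was 0.79 over the 7 and 0.00 over all genes.

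Tfrc was 351, 388, 946 and 810 CPM in sham, 164, 220, 228 and 220 CPM at day 2 and 735, 404, 576 and 764 CPM at day 14. The day 2 libraries lay under all others, and Tfrc fell by 1.47 on the log2 scale (SE 0.32, adjusted p = 0.00985). The sham libraries formed a low and a high pair, and without sham library 3 the change was -1.17 with an adjusted p of 0.0512. Slc40a1 was 190, 297, 298 and 410 CPM in sham, 135, 100, 176 and 136 CPM at day 2 and 360, 217, 378 and 409 CPM at day 14. It fell by 1.01 (SE 0.27, adjusted p = 0.0222) without overlap, and the call was lost without any one of sham libraries 2, 3 and 4 or stroke libraries 1, 2 and 4 (adjusted p from 0.0575 to 0.0879).

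Prdx1 in endothelium was 607, 564, 357 and 500 CPM in sham and 983, 955, 1163 and 1101 CPM at day 2, with a wide gap between the groups (1.14 ± 0.21, adjusted p = 0.00404). Ftl1 rose from 1055 ± 117 to 1811 ± 240 CPM (0.87 ± 0.21, adjusted p = 0.0158; 0.0578 without sham library 3). Txnrd1 rose from 55.8 ± 21.0 to 175 ± 87.1 CPM (1.60 ± 0.37, adjusted p = 0.0125), with 1 stroke library inside the sham range. Gclm rose from 178 ± 35.9 to 292 ± 46.8 CPM without overlap (0.79 ± 0.20, adjusted p = 0.0188), a call lost without sham library 2 (adjusted p = 0.0558) or 3 (adjusted p = 0.0661). Fth1, at 4627 ± 1009 against 3150 ± 737 CPM, was not called (0.64 ± 0.26, adjusted p = 0.114; 0.0426 with the mitochondrial split as a term). Hmox1 had 55 counts at day 2 and 5 in sham, or 29.6 ± 15.7 against 4.92 ± 5.82 CPM without overlap, and was too low to be tested, as were Srxn1, with 22 counts against 6, and Slc7a11, with 7 against 0.

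**Figure D2:**
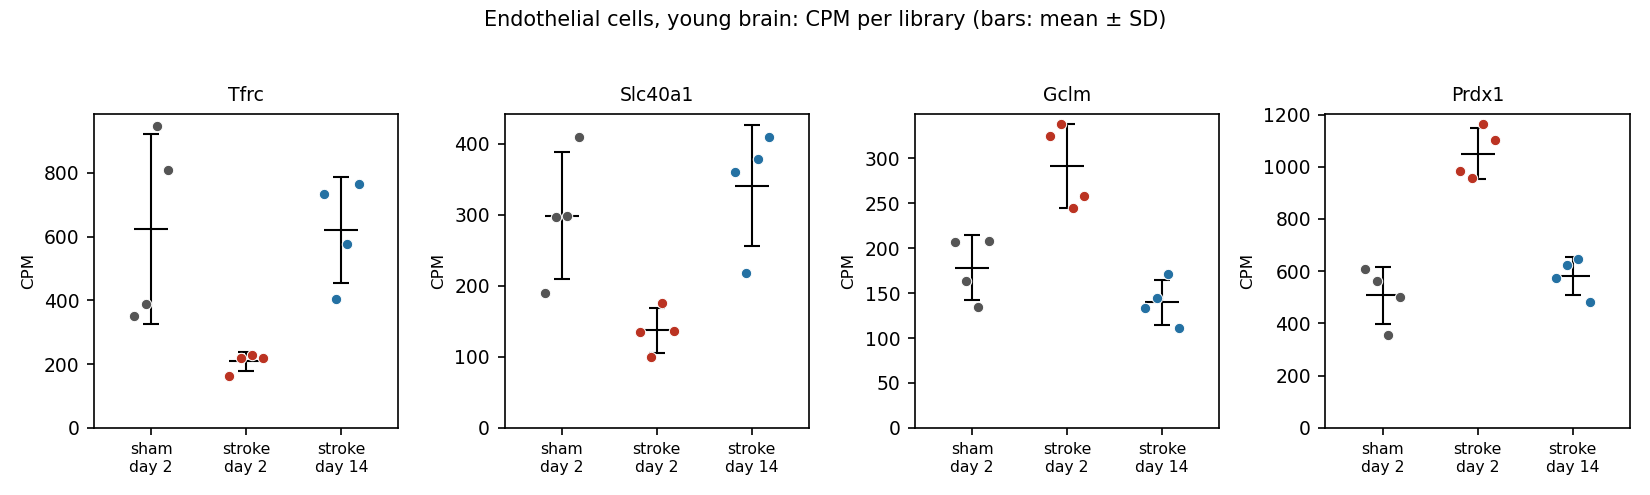
CPM of Tfrc, Slc40a1, Gclm and Prdx1 (y axes, linear) in endothelial cells of young brain, by group (x axis); points are libraries and bars the mean ± SD of 4. Tfrc and Slc40a1 are lowest at day 2 and at day 14 overlap the sham range, and Gclm and Prdx1 are highest at day 2.

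The pathway lists were counted beside the same 13.3% of all genes called. Of 28 NRF2, glutathione and thioredoxin genes 7 rose in endothelium and none fell: the esterase Esd went from 137 to 516 CPM (1.99 ± 0.24), transaldolase (Taldo1) from 183 to 409 CPM (1.20 ± 0.23) and Txn1 from 348 to 747 CPM (1.19 ± 0.22). Of 7 iron genes 1 fell and none rose, near that share: ceruloplasmin, from 505 to 275 CPM (-0.79 ± 0.22, adjusted p = 0.0285). Ireb2, which encodes an iron regulatory protein, was at 56.9 CPM in sham and 26.8 CPM at day 2 and passed the filter only through the sham libraries. Of 10 haem genes 1 fell, also near it: Flvcr2, a transporter at the blood-brain barrier, from 74.9 to 34.7 CPM (-0.95 ± 0.29, adjusted p = 0.0394). Endothelial markers summed to 21710 to 31043 CPM in sham and 14746 to 20962 CPM at day 2, monocyte or macrophage markers to 1094 to 2062 and 2121 to 3650 CPM, and the red cell list to between 36.6 and 3545 CPM in sham and between 0 and 6069 CPM at day 2. Their part in the changes was not tested.

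The authors' endothelial subtypes, clusters drawn from the same cells and so described without a test, differed widely in Tfrc. Subtype EC1 had 799 ± 319 CPM in sham and 585 ± 390 CPM at day 2, and EC4 144 ± 53.3 and 133 ± 85.1 CPM. Subtype EC2 held 1017 of the day 2 cells, over 4 libraries, and had Tfrc at 61.4 ± 35.9 CPM and Slc40a1 at 91.1 ± 34.0 CPM; in sham only 1 library held 20 or more EC2 cells. The libraries of EC1 at the 2 times overlapped in Tfrc, and the day 2 libraries of EC2 all lay under those of EC1. How far the fall over all endothelial cells follows from these shares was not tested.

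At day 14 none of the 7 genes was called in endothelium, and neither was any other gene (0% of 5833, 356 at an unadjusted p under 0.05, and none of the 7 with DESeq2). Tfrc was at 620 ± 166 CPM against 624 ± 299 in sham and Slc40a1 at 341 ± 84.9 against 299 ± 89.5 CPM.

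Monocyte-derived cells, few in sham brain (43 to 99 per library) and 1468 to 2180 per library at day 2, held more Hmox1, ferritin and Prdx1 transcript after stroke. Of 7 genes 6 were higher at day 2 and none lower, beside 6.71% of 8080 genes. The median was 2.11 over the 7 genes and 0.29 over all genes, and the all-gene median moved by -0.42 when library size alone set the scale.

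Hmox1 was 87.1, 50.0, 47.0 and 52.6 CPM in sham, 267, 536, 320 and 446 CPM at day 2 and 105, 113, 93.0 and 54.3 CPM at day 14. The day 2 libraries stood apart from both other groups, with a rise of 3.0 ± 0.40 (adjusted p = 0.000527) that rests on 16 sham counts. Fth1 rose from 7461 ± 1184 to 24851 ± 4764 CPM (2.25 ± 0.32, adjusted p = 0.000901) and Ftl1 from 4717 ± 670 to 11850 ± 2248 CPM (1.81 ± 0.29, adjusted p = 0.00167). Neither ferritin chain had overlapping libraries. Prdx1 rose from 598 ± 174 to 1783 ± 329 CPM (2.03 ± 0.33, adjusted p = 0.00184), again without overlap.

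Gclm (2.12 ± 0.59, adjusted p = 0.0438) and Txnrd1 (1.10 ± 0.30, adjusted p = 0.0419) passed the threshold narrowly. Both calls were lost with DESeq2 (adjusted p = 0.0573 and 0.105), with scaling by library size alone (0.131 and 0.278), with only both compared groups in the fit (0.0707 and 0.102), and without any one of several libraries, with adjusted p from 0.0557 to 0.168 for Gclm and from 0.058 to 0.15 for Txnrd1. Slc7a11 was 26.5, 9.96, 0 and 0 CPM in sham and 74.4, 79.0, 35.5 and 31.2 CPM at day 2, and missed the threshold (2.11 ± 0.74, adjusted p = 0.106). It was called without the 5% of cells with the highest totals (3.88, adjusted p = 0.0316) and with the mitochondrial split as a term (0.0381). Srxn1 had 1 count in sham and 239 at day 2, a ratio of 5.91 with a counting interval of 1.05 to 234, and Tfrc 1 and 85, a ratio of 2.1 with an interval of 0.367 to 83.9, and neither is in the count. Slc40a1 stayed near 0, with 1 count in sham and 2 at day 2.

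Of the lists at day 2, beside the same 6.71% of all genes, 6 of 35 NRF2 genes and 4 of 13 haem genes were higher and none lower, and of 11 iron genes 1 was higher and 1 lower. Slc3a2, the partner chain of Slc7a11, went from 69.7 to 302 CPM (2.46 ± 0.38, adjusted p = 0.00146) and the small Maf factor Maff from 15.3 to 75.5 CPM (2.47 ± 0.58, adjusted p = 0.0198). Slc39a14, outside these counts, was at 2.16 CPM in sham and 38.2 CPM at day 2. The gene that fell was lipocalin 2 (Lcn2), a siderophore binder of neutrophil granules, from 210 to 29.4 CPM (-2.35 ± 0.49, adjusted p = 0.00929); the neutrophil list in these cells, which holds Lcn2, summed to 426 to 3929 CPM in sham and 213 to 398 CPM at day 2, and the part of this in the changes was not tested.

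The main fit of day 14 against day 2 had no replicate block. There Hmox1 was the 1 gene called of 7 (Srxn1 and Tfrc left out), beside 1.79% of all genes. It fell by 2.14 on the log2 scale (SE 0.30, adjusted p = 0.00268). In this comparison the replicate numbers were taken to pair the libraries, though no label says what a number stands for. The share of all genes called with the number as a block is not given here. With that block Slc7a11 (-2.0, adjusted p = 0.000119) and Gclm (-1.57, adjusted p = 0.000282) were called too. Without the block they were at -1.89 ± 0.48 (adjusted p = 0.0609) and -1.71 ± 0.42 (adjusted p = 0.056). DESeq2 without the block called both (adjusted p = 0.0311 and 0.0138), as did the fit with the mitochondrial split as a term (adjusted p = 0.00135 and 0.012). In both groups libraries 1 and 2 had the low mitochondrial share and 3 and 4 the high one, so pairing and this split cannot be told apart. Fth1 and Ftl1 were at 19192 ± 3026 and 8967 ± 211 CPM at day 14 and were not called. With no gene left out, 4 of 15 iron genes were called, 2 higher and 2 lower, beside the same 1.79% of all genes. Of these, Cp and Slc39a14 passed the filter only through the group where they were higher. Of 13 haem genes 0 were called, and of 36 NRF2 genes 3, each lower. The 8 neutrophil markers in these cells summed to 213 to 398 CPM at day 2 and 74.6 to 174 CPM at day 14, without overlap, with 1 to 5 of the 8 at 0, and the 8 microglial markers to 270 to 820 and 371 to 2322 CPM, with overlap. Their part in the change was not tested.

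Among the monocyte-derived subtypes of day 2, described without a test, Hmox1 ranged from 93.1 ± 63.1 CPM in MdC3 to 635 ± 179 CPM in MdC1, and Gclm was also highest in MdC1. MdC3 was the only subtype with 20 or more cells in each sham library, with Hmox1 at 60.4 ± 31.3 CPM, and its sham and day 2 libraries overlapped. In microglial subtypes of day 2, Hmox1 was at 260 ± 129 CPM in Mg4, at 38.2 ± 12.4 in Mg1 and at 42.3 ± 18.7 CPM in Mg5. In sham, Mg4 held 124 cells in 3 libraries, with Hmox1 at 68.9 ± 8.91 CPM.

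**Figure D3:**
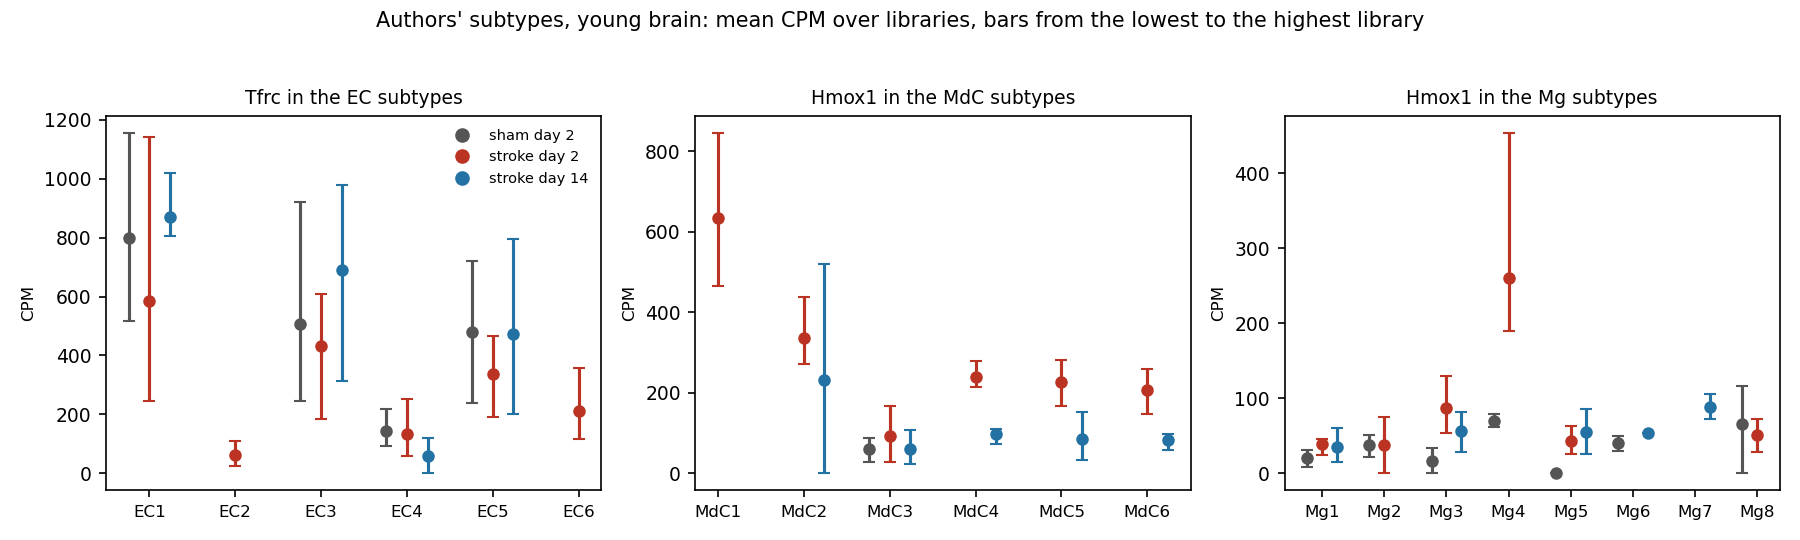
CPM of Tfrc in endothelial subtypes and of Hmox1 in monocyte-derived and microglial subtypes of young brain (y axes, linear), by the authors' subtype (x axis) and group (colour); points are means over the libraries with 20 or more cells of the subtype and bars run from the lowest to the highest library, shown where at least 2 libraries qualified. EC2 has the lowest Tfrc of the day 2 subtypes, 61.4 CPM, and MdC1 the highest Hmox1, 635 CPM.

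Border-associated macrophages, whose sham Hmox1 was already high, had none of 3 genes called at day 2, beside 2.67% of 1313 genes; DESeq2 called 1, and 301 genes had an unadjusted p under 0.05. Hmox1 was 321, 94.5, 36.7 and 91.2 CPM in sham and 138, 730, 309 and 694 CPM at day 2, and it would have failed the filter without the stroke libraries. It missed the threshold (1.60 ± 0.53, adjusted p = 0.0945) and passed it without sham library 1 (2.52, adjusted p = 0.03) or stroke library 1 (1.88, adjusted p = 0.0495), through which the groups overlapped. Without sham library 4 none of 3 was called, beside 0.482% of all genes, with adjusted p = 0.172 for Hmox1 and 0.132 for Prdx1. Prdx1 was 477 ± 68.8 against 1135 ± 250 CPM without overlap (1.20 ± 0.34, adjusted p = 0.0663; 0.04 with DESeq2). The groups differed in the authors' subtypes: in libraries with 20 or more cells of a subtype, sham had 259 cells of BAM1, 202 of BAM2 and 95 of BAM3, and day 2 had 78, 63 and 31 of these and 75 of BAM4. BAM4, which no sham library held at that number, was at 721 CPM of Hmox1 and 1701 CPM of Prdx1 over 2 libraries, against 290 and 924 CPM in BAM1 (1 library) and 211 and 961 CPM in BAM2 (2 libraries) at day 2. BAM3 at day 2, on 31 cells of 1 library, was at 1560 CPM of Hmox1, above BAM4, and at 1614 CPM of Prdx1. In sham, BAM3 was at 91.1 ± 112 and 645 ± 254 CPM over 3 libraries. The part of this in the changes was not tested.

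Monocyte-derived cells in brain were then set beside the monocytes in blood at day 2 of stroke. The 6 genes counted, Hmox1, Gclm, Txnrd1, Prdx1 and both ferritin chains, were higher in brain, beside 24.7% of all genes called in either direction. Hmox1 was 392 ± 122 CPM in brain and 69.2 ± 39.7 in blood (2.70 ± 0.39, adjusted p = 0.000327), Fth1 24851 ± 4764 and 2969 ± 239 CPM (3.37 ± 0.36, adjusted p = 3.84e-05). Slc7a11 had 493 counts in brain and 1 in blood, a ratio of 84.9 with a counting interval of 15.2 to 3360, and Srxn1 239 and 1, a ratio of 41.1 with an interval of 7.31 to 1630. Both passed the filter only through the brain libraries. Gclm (2.37 ± 0.44), Prdx1 (1.93 ± 0.32), Ftl1 (1.87 ± 0.31) and Txnrd1 (1.56 ± 0.23) had smaller differences, none with overlapping libraries. Slc3a2 was also higher in brain, at 302 against 28.9 CPM, and 10 of 28 NRF2 genes differed, 7 higher and 3 lower, beside the same 24.7%. With no gene left out, 7 of 14 haem genes were called, 5 higher and 2 lower, and 3 of 12 iron genes, 1 higher and 2 lower. The iron gene called higher, Slc39a14, passed the filter only through the brain libraries and so had to differ to be tested. The 8 monocyte or macrophage markers summed to 28013 to 42022 CPM in brain and 52110 to 68062 CPM in blood, with none at 0, and the 8 neutrophil markers to 213 to 398 and 676 to 1466 CPM. Neither list overlapped between the tissues, and their part in the differences was not tested.

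Brain granulocytes against blood neutrophils at day 2 had 2 genes in the count, Fth1 and Ftl1, of which Fth1 was called, beside 9.16% of 1976 genes. Slc7a11, Gclm and Txnrd1 passed the filter only through the brain libraries and Slc40a1 only through those of blood. Gclm was at 193 ± 67.1 CPM in brain and 92.8 ± 33.7 in blood, Txnrd1 at 168 ± 125 and 50.8 ± 31.2 CPM, and Prdx6, of the NRF2 list, at 346 and 87.3 CPM. Slc7a11 was 401, 630, 90.7 and 68.4 CPM in brain and 30.0, 40.4, 41.0 and 25.9 CPM in blood, with no overlap but a wide spread in brain (2.70 ± 0.56). Fth1 was 26314 ± 8879 against 6936 ± 1555 CPM (1.89 ± 0.39, adjusted p = 0.00411), a call lost when no filter on low counts was used (1.17, adjusted p = 0.374). Slc40a1 was lower in brain, 116 ± 43.0 against 658 ± 248 CPM (-2.32 ± 0.38). Prdx1 was too low to be tested, with 31 counts in brain and 3 in blood, a ratio of 325 with a counting interval of 101 to 1660; its brain libraries had 285, 1088, 0 and 26.1 CPM. The neutrophil and the monocyte or macrophage markers overlapped between the tissues, at 114288 to 209215 CPM in brain and 175903 to 270210 CPM in blood for the former and 1661 to 7724 and 5611 to 12744 CPM for the latter.

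**Figure D4:**
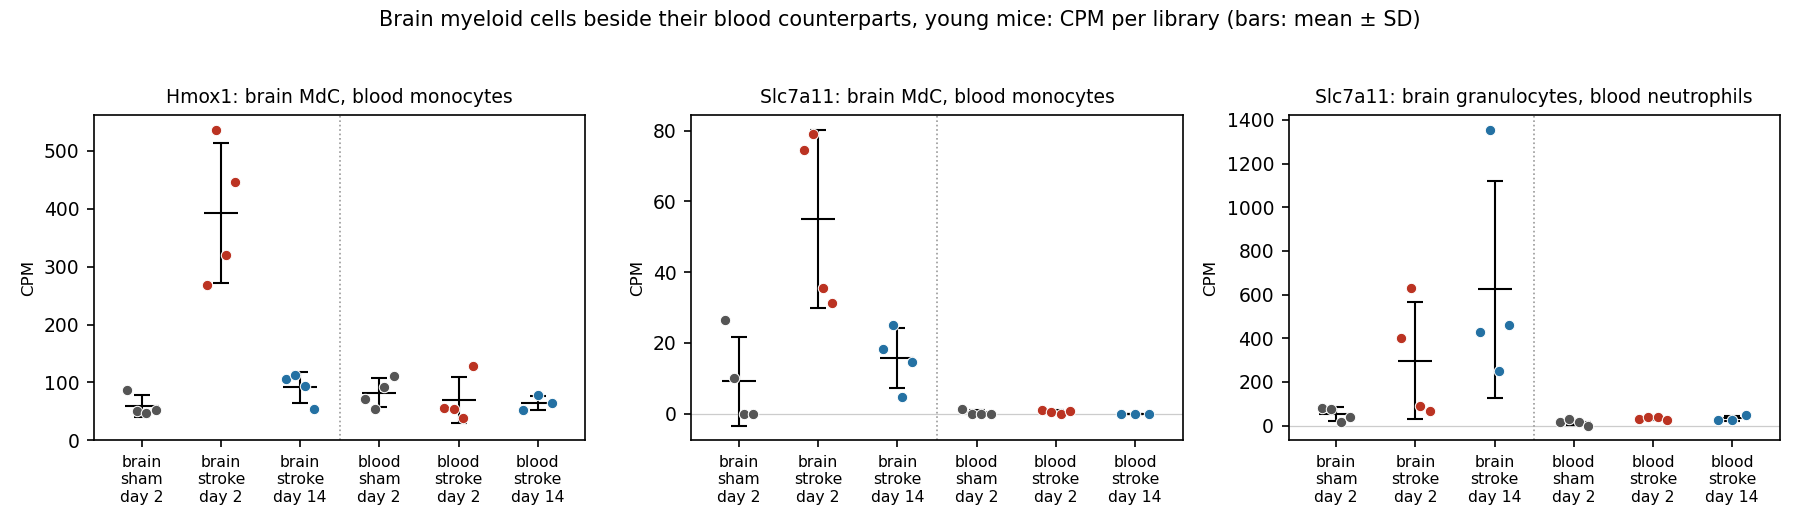
CPM (y axes, linear) of Hmox1 and Slc7a11 in monocyte-derived cells of brain (MdC) and monocytes of blood, and of Slc7a11 in brain granulocytes and blood neutrophils, by tissue and group (x axis); points are libraries and bars the mean ± SD. The brain libraries rise above the blood libraries at day 2 in all 3 panels, and Slc7a11 in granulocytes spans 251 to 1353 CPM at day 14.

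Both comparisons within brain granulocytes were added after their values had been seen. At day 2 Fth1 was called, 1 of 5 genes beside 8.35% of 994 (1.21 ± 0.33, adjusted p = 0.0285), and the call was lost without any one of the 4 sham libraries or stroke libraries 2, 3 and 4, and with no filter on low counts (adjusted p = 0.651). Ftl1 (1.07, adjusted p = 0.0526) and Slc7a11 (1.87 ± 0.75, adjusted p = 0.151) missed the threshold, and without stroke library 2 their changes were 0.67 and 1.02. Ftl1 was called with DESeq2 (adjusted p = 0.0185), library size alone (0.0124), only both compared groups (0.0484) and without the 5% of cells with the highest totals (0.0475). Gclm, at 193 ± 67.1 against 166 ± 64.0 CPM, and Prdx1 are not in the count. At day 14 the 2 genes in the count, both ferritin chains, were higher, beside 26.1% of all genes: Fth1 went from 10092 ± 2681 to 35409 ± 10726 CPM (1.43 ± 0.34) and Ftl1 from 2933 ± 413 to 10759 ± 1217 CPM (1.48 ± 0.33), without overlap. Without any filter on low counts neither was called (adjusted p = 0.371 and 0.365).

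The others passed the filter only through the group where they were higher. Slc7a11 was 81.0, 75.5, 16.1 and 38.7 CPM in sham and 427, 1353, 251 and 462 CPM at day 14 (2.75 ± 0.71), and Txnrd1 94.3 ± 50.0 and 372 ± 99.0 CPM (1.68 ± 0.52), both without overlap. Prdx1 was 16, 12.7, 49.9 and 0 CPM in sham, 285, 1088, 0 and 26.1 CPM at day 2 and 420, 414, 137 and 186 CPM at day 14. It rested on 6, 31 and 33 counts, with overlap at day 2 and none at day 14. Gclm was at 91.2 ± 64.2 CPM at day 14 and Slc40a1 at 221 ± 35.4 CPM, against 166 ± 64.0 and 183 ± 53.1 CPM in sham.

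Srxn1 had 7 counts in day 14 granulocytes and 0 in sham, at least 4.13-fold higher against a floor of 3 counts over the group. Of 10 genes of the NRF2 list 2 rose and 4 fell at day 14, beside the same 26.1% of all genes, and among the latter was Tkt, transketolase. Outside this count, Osgin1, an NRF2 target, was at 54.4 CPM in sham and 592 CPM at day 14, and the autophagy receptor Sqstm1 at 92.1 and 841 CPM. Mgst1 of the same list, called lower (-3.24), passed the filter only through the sham libraries. With no gene left out, 5 of 15 NRF2 genes were called higher and 5 lower. Of 6 iron genes 1 was called higher and 3 lower, Steap4 among the latter only through sham, and of 2 haem genes 1 was called lower. Neutrophil markers in these cells summed to 230320 to 304321 CPM in sham, 114288 to 209215 at day 2 and 54340 to 71152 CPM at day 14, where 1 of 8 was at 0. The 8 monocyte or macrophage markers moved with them, at 7748 to 11602, 1661 to 7724 and 1261 to 3730 CPM, with no library of either stroke time inside the sham range. The part of both in the changes was not tested. Scaling by library size alone shifted the median of all genes by 0.50.

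In blood, where neutrophils and monocytes were fitted, no member tested was called. Neutrophils had 0 of 7 genes called at day 2, beside 0% of all genes (209 at an unadjusted p under 0.05; DESeq2 called none of the 7), and 0 of 7 at day 14, beside 5.99% (1001 at an unadjusted p under 0.05; DESeq2 called 1). Monocytes had 0 of 6 at day 2, beside 0% (189 at an unadjusted p under 0.05), and 0 of 6 at day 14, beside 0.254% (366 at an unadjusted p under 0.05), and DESeq2 called none of the 6 at either time. Gclm in day 14 neutrophils came nearest, at 48.0 ± 13.8 CPM (n = 3) against 106 ± 63.3 CPM (n = 4) with overlap (-1.68 ± 0.50, adjusted p = 0.0572; 0.0171 with DESeq2), and was called without sham library 4 (-1.93, adjusted p = 0.0111) or day 2 library 1 or 2 (adjusted p = 0.0456 and 0.0428). Slc40a1 in neutrophils was 529, 947, 502 and 715 CPM in sham and 508, 779, 945 and 402 CPM at day 2. It was the highest of the blood types in sham, above the next, dendritic cells at 10.6 ± 14.9 CPM. Of the lists in day 14 neutrophils, 5 of 10 iron genes were called, 3 higher and 2 lower, beside the 5.99% of all genes. Their median log2 fold change over the 10 was 0.007. Among those called, transferrin was higher (1.35 ± 0.27, adjusted p = 0.009) and the metalloreductase Steap4 lower (-2.25 ± 0.35, adjusted p = 0.00204). Of 9 haem genes tested 1 was called, and of 25 NRF2 genes 1, each lower. Neutrophil markers in these cells summed to 200834 to 311341 CPM in sham and 113089 to 196057 CPM at day 14, without overlap, and library size alone shifted the median of all genes by 0.34; the part of this in the changes was not tested.

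**Figure D5:**
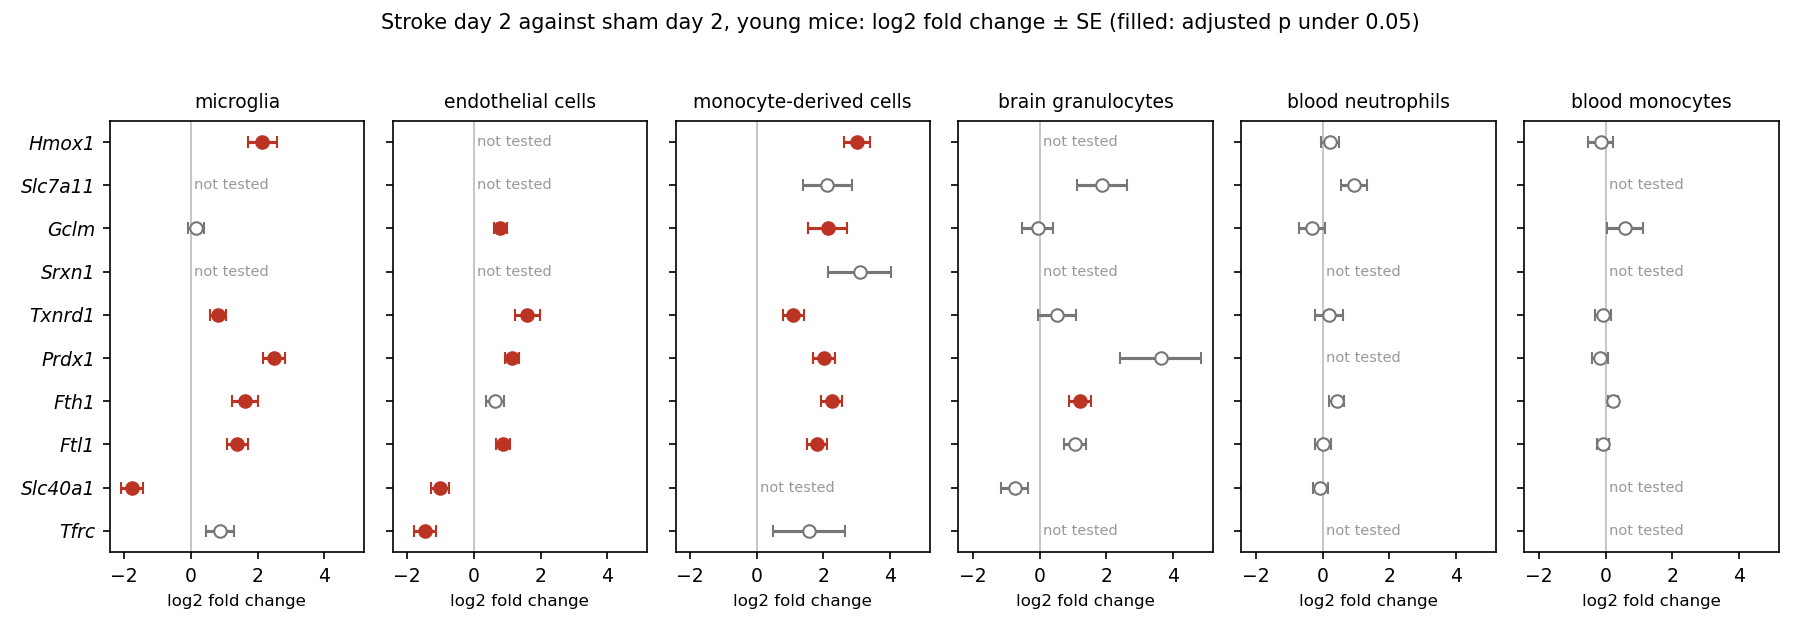
Log2 fold change ± SE of the 10 genes (y axis) at day 2 of stroke against sham in young mice, for 6 cell types; filled red points passed an adjusted p of 0.05, open points did not, and genes too low for the test are marked. The brain types have 6, 6, 6 and 1 filled points from left to right and the blood types none; whether effects differ between types was not tested.

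In aged mice the day 2 effect in microglia was estimated from 2 sham and 3 stroke libraries, in a fit that shared its spread with the young groups. All 10 genes were tested here, and of the 8 in the count 2 were called, both higher, beside 2.3% of 11096 genes. Prdx1 was 248 and 234 CPM in sham and 760, 896 and 568 CPM after stroke (1.69 ± 0.39, adjusted p = 0.0328), and Txnrd1 52.6 and 72.3 CPM against 174, 202 and 110 CPM (1.45 ± 0.35, adjusted p = 0.0392), both without overlap; without young stroke library 3 the adjusted p were 0.0153 and 0.0385. Both calls were lost without either sham library, without the male stroke library and without the first female one, with adjusted p from 0.0584 to 0.254. Both were also lost without any one of young sham libraries 3 and 4 or young stroke library 1, which share the fit, that of Txnrd1 without young sham library 2 (adjusted p = 0.06) and with sex as a covariate (adjusted p = 0.0543), and that of Prdx1 with scaling by library size alone (adjusted p = 0.0661) and with counts rounded up (adjusted p = 0.0626). Hmox1 was 27.6 and 20.2 against 214, 91.5 and 26.3 CPM (2.41 ± 0.68, adjusted p = 0.0769; 0.0659 without young stroke library 3). Its change was 1.58 (adjusted p = 0.25) without the male stroke library, and it was called without the second female stroke library (2.79, adjusted p = 0.0266) and with no filter on low counts (adjusted p = 0.00313). Fth1 was 4414 ± 238 against 10720 ± 5277 CPM (1.34 ± 0.51, adjusted p = 0.196; 0.0844 without young stroke library 3), and Slc40a1 86.6 ± 42.0 against 33.2 ± 17.9 CPM (-1.37 ± 0.42, adjusted p = 0.102; 0.0639 without that library). The change of Slc40a1 was -0.74 (adjusted p = 0.594) without the female sham library, and it was called without the male stroke library (-1.99, adjusted p = 0.0257) and with DESeq2 (adjusted p = 0.0474). Slc7a11, on 10 counts in either group, and Srxn1, on 5 in sham and 31 after stroke, are not in the count. Microglial markers in these cells summed to 23748 and 24310 CPM in sham and to 10651 to 18701 CPM after stroke. Neutrophil markers reached 1513 CPM in the male stroke library, against 148 and 171 CPM in sham, and red cell markers 2309 CPM in the female sham library and 0 in the others. Their part in the changes was not tested.

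The difference of the day 2 effect between aged and young microglia was itself tested, and none of the 10 genes was called, with adjusted p from 0.772 to 1. No other gene was called either (0% of 11096, 623 at an unadjusted p under 0.05, and none of the 10 with DESeq2). All young libraries were from males and the aged ones from both sexes, so age and sex were not separated in this test. The young arm of this test includes the library with 58 microglia, and without it the count was also 0 and the adjusted p again ran from 0.772 to 1.

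Finally, the genes with the most similar pattern were sought over 27 points, each the mean CPM of 1 cell type in 1 young brain group, for 10 types and 6912 genes; the points share libraries and depth, and no p is given. Day 2 microglia and sham border-associated macrophages were taken with the libraries that went against their labels. For Hmox1 the most similar genes were C5ar1, a complement receptor (Pearson's r = 0.907), and Fcgr4, an Fc receptor (0.887). For Slc7a11 they were Litaf (0.886) and Arg2, the mitochondrial arginase (0.858). For Slc40a1 they were the ectonucleotidase Entpd1 (0.863) and Arap3 (0.851), and for Tfrc Skp1a (0.856) and Cyb5r3, a cytochrome b5 reductase (0.837).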

How the data were processed

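Drop-seq libraries were made by the authors from pooled mice, and the deposited values are expected counts per gene and cell (fractional), with cell type and subtype annotations; the submitters' processing notes name Seurat and mm10, and the aligner is not given in the sources used here. Each cell's mitochondrial percent is a column of the authors' deposited annotation, a share of the cell's total per the file headers. Expected counts were summed per library and annotated type and rounded to whole numbers. CPM came from the unrounded sums over all genes in a library's table (young brain 19704 genes, aged 27514, blood 16623). Libraries with under 20 cells of a type were left out of that type. Groups came from the labels. Each of 20 comparisons was fitted with edgeR 4.0.16 (R 4.3.3; limma 3.58.1): filterByExpr, TMM scaling and the quasi-likelihood test, two-sided, with Benjamini-Hochberg adjustment over all genes tested and calls at an adjusted p under 0.05; counts of calls leave out genes that would have failed the filter without the libraries of the group where they were higher, a rule chosen after seeing the data; the SE is the absolute log2 fold change over the square root of F. Shares of all genes called leave out no gene tested. Fits took all groups of the type unless stated, and 2 comparisons (brain granulocytes after stroke) were added after values had been seen. The members, the lists of 22 iron, 21 haem and 39 NRF2, glutathione and thioredoxin genes, and the markers were chosen with earlier results of these data known. Genes named beyond the members were at most 3 in each direction per comparison over the 3 lists, by size of change among those called with a mean of at least 20 CPM. Ratios of counts have exact 95% intervals that cover counting error only, and 0 was floored at 3 counts.

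Replicate numbers were taken to pair the libraries where every same-numbered pair's deviations correlated above 0.1. That held in 1 comparison, monocyte-derived cells at day 14 against day 2 of stroke (r from 0.257 to 0.751 in 4 pairs). Libraries of different numbers had r from -0.632 to 0.521 there, and 3 of the 4 pairs were best with their own number. No label says what a number stands for. Alternatives were DESeq2 1.42.0, no filter, scaling by library size, rounding up, leaving out the 5% of cells with the highest totals (doublets were not called), the replicate block, only the compared groups, sex as a covariate (aged), a term for the mitochondrial split and the lists without a library that went against its label (both chosen after seeing the data) and leaving out each library. Free RNA in droplets was not removed. The scripts were tested on simulated data. Sequences are from RefSeq (GRCm38.p6) and GENCODE M21.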

Additional observations from a re-analysis of the deposited data

Results flagged for a closer look

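Of 135 sets of libraries looked at, each 1 gene in 1 cell type and group, 16 held a library far from the others. The rule flags about 1 in 20 sets of independent, normally spread values. These sets share libraries and some rest on few counts, so the 16 cannot be set against that rate. In young microglia at day 2 of stroke, library 3 stood above the others for Fth1 (25913 CPM, others 6517 to 8902), Ftl1 (13538, others 5757 to 6543) and Hmox1 (417, others 69.9 to 113); it held 58 such cells. At day 14 Prdx1 in microglia was 544 CPM in library 3 (others 324 to 357), and in border-associated macrophages of the same library 751 CPM (others 321 to 393). Slc40a1 in sham microglia was 153 CPM in library 4 (others 128 to 131).

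In monocyte-derived cells of day 2, library 2 was high for Gclm (263 CPM, others 89.3 to 98.1) and Srxn1 (50.2 CPM, others 18.0 to 22.7), and library 1 was low for Prdx1 (1293 CPM, others 1894 to 1974). Hmox1 in sham monocyte-derived cells was 87.1 CPM in library 1 (others 47.0 to 52.6). Tfrc in day 2 endothelial cells was 164 CPM in library 1 (others 220 to 228). In brain granulocytes, Slc40a1 at day 2 was 52.1 CPM in library 1 (others 135 to 143), Txnrd1 at day 14 was 520 CPM in library 1 (others 312 to 332), and Srxn1 at day 14 was 312 CPM in library 2 (others 20.9 to 47.4), from 29 cells. In blood neutrophils of day 2, Ftl1 was 3808 CPM in library 2 (others 3283 to 3348) and Hmox1 24.7 CPM in library 3 (others 58.4 to 62.8).

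The single aged library of day 14 after stroke was in no fitted comparison. Only values whose counting interval lay above both aged sham libraries were looked for, and that interval does not cover the spread between pools. They were Fth1 in endothelial cells (3982 CPM), granulocytes (13404), monocyte-derived cells (11323) and microglia (8619), Ftl1 in granulocytes (6353) and microglia (3454), Prdx1 in microglia (376) and Txnrd1 in granulocytes (345). Hmox1 was 192 CPM in its monocyte-derived cells and 86.2 CPM in its granulocytes, where sham had 0. Slc40a1 (185 CPM) and Tfrc (34.6 CPM) were found in its monocyte-derived cells, where sham had 0. There is no replicate check on these values.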

How the results depend on the processing

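No called result reversed: of 847 refits of 51 called results, 83 lost the call, and 33 results kept it throughout. The counts here, the 51 among them, are of every member tested, those that passed the filter through 1 group included. Such members had to differ to be tested, so calls they kept are no support. Of the settings below, only those that moved a count to or from 0 or by a large factor are listed. The shares of all genes called in these refits are not given here, so the counts cannot be set against them. With DESeq2 the number of members called was 1 in microglia at day 14 against day 2 (main value 0), 3 in monocyte-derived cells at day 14 against day 2 (main value 1), 1 in border-associated macrophages (0), 1 in day 14 neutrophils (0) and 2 in day 2 granulocytes (1). With no filter it was 3 in monocyte-derived cells at day 14 against day 2, 1 in day 14 neutrophils and 2 in day 14 granulocytes (main value 4). With library size alone it was 3 in microglia at day 14 against day 2, where the median of all genes shifted by -0.29. The count was 1 in aged microglia (main value 2) and 2 in day 2 granulocytes. With counts rounded up the same 3 counts were 1, 1 and 2. Without the 5% of cells with the highest totals it was 1 in day 14 neutrophils and 2 in day 2 granulocytes, with sex as a covariate 1 in aged microglia, and with only the compared groups 2 in day 2 granulocytes. With the mitochondrial split as a term it was 1 in microglia and 4 in monocyte-derived cells at day 14 against day 2.

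With the replicate block it was 4 in monocyte-derived cells at day 14 against day 2, the comparison where numbers were taken to pair the libraries, 1 in day 14 neutrophils and 2 in day 2 granulocytes. Elsewhere the libraries share only a number. With the block Slc7a11 was called in day 2 monocyte-derived cells (2.27, adjusted p = 0.0279) and day 2 granulocytes (2.03, adjusted p = 0.0268).

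Leaving out 1 library gave 2 to 5 members in microglia at day 14, 0 to 1 at day 14 against day 2, 2 to 6 in endothelial cells at day 2, 1 to 3 in monocyte-derived cells at day 14 against day 2, 0 to 1 in border-associated macrophages, 0 to 1 in day 14 neutrophils, 0 to 3 in aged microglia and 0 to 1 in day 2 granulocytes. Smaller moves were 5 to 7 members in microglia and 4 to 6 in monocyte-derived cells at day 2, and 3 to 5 in day 14 granulocytes. There were 2 to 3 in brain granulocytes against blood neutrophils and 6 to 7 in endothelial cells against microglia. Where 1 sham library was left, it was assumed to vary like the other groups. Depth limits Srxn1 and Slc7a11 outside monocyte-derived cells and granulocytes, and every gene in brain granulocytes (29 to 169 cells a library). The cause of these changes was not tested.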
